A study of Mus musculus with 15 samples.

Results

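The collagen chain genes are the genes that encode the chains of the collagens, and 44 of them were found among the 53465 genes of the deposited table by their symbols, which run Col, a type number, a and a chain number. All 44 reached the minimum set for a test, a mean of 5 normalized counts over the 15 libraries, as did 25549 genes in all. The lowest was Col9a2 with a mean of 5.45, followed by Col2a1 with 6.78, and none lay below the minimum. By the structures their proteins form, 11 chains are fibrillar, 8 belong to basement membranes, 9 are FACITs (fibril-associated collagens with interrupted triple helices) and 16 belong to other kinds.

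Collagens are proteins of 3 chains wound into a triple helix, in which glycine recurs at a fixed spacing in the helical part. Fibrillar chains (types I, II, III, V, XI, XXIV and XXVII) assemble into the banded fibrils of connective tissue and are made in quantity by fibroblasts. Type IV chains form the sheet-like network of basement membranes, on which endothelial cells sit, and types XV and XVIII are found at those membranes.

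RNA sequencing had been carried out on 3 populations of cells sorted from B16-F0 tumors, a transplanted mouse melanoma line, 15 days after inoculation into CAG-GFP mice, whose cells express GFP from a ubiquitous promoter. Mice of both sexes, 8 to 14 weeks old, were used in the study, and all 3 populations were GFP+, lineage-negative and CD34+. Endovascular progenitors (EVP) were gated as CD31lo VEGFR2lo, transit amplifying cells (TA) as CD31int VEGFR2lo and definitive differentiated cells (D) as CD31hi VEGFR2hi. Each population had 5 libraries, and the comparisons ask how the molecular profile differs between the steps of this hierarchy. The labels number the replicates but do not say whether they came from separate mice, so that p-values measure the spread between these libraries, which may be in part technical. CAG drives GFP in nearly all host cells, so the GFP gate separates host from melanoma cells and does not select endothelium. In a separate experiment with Cdh5-CreER RosaYFP mice, the paper reports that nearly all lineage-negative CD34+ tumor cells carried the endothelial YFP label.

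Values are normalized counts, the read count of a gene divided by the size factor of its library. The libraries held 5394356 to 26513073 reads on genes (median 19049194). Intervals and floors based on reads cover counting error only. EVP 1, the shallowest library, stood apart: 1 read there was worth 3.51 normalized counts, 98.3% of 1106 olfactory receptor genes, which these tissues should not use, had a read, and the predicted gene Gm10800 took 10.6% of reads. TA 1 and D 1 showed the same features with 8.69% and 8.50% of reads on Gm10800, and 81.6% and 89.2% of the olfactory receptor genes with a read. EVP 2, TA 2 and TA 3 shared them in part, with 61.8%, 57.8% and 71.0% of those genes and 0.205%, 0.274% and 0.701% of reads on Gm10800. In the remaining libraries 2.89% to 24.1% of the olfactory receptor genes had a read. Leaving out replicate 1 therefore does not remove all of this background. Without replicate 1 of each population a population mean moved by over 1.5 times for 19 of the 44 chains, all with overall means of at most 1021 normalized counts, and the means printed for them are followed by the means of the other 4 libraries or by all library values.

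The markers of the sorted cells were checked first, because the collagen levels can be read only against them. The summed level of 10 pan-endothelial marker genes was 2385 to 4279 normalized counts in EVP, 5979 to 72865 in TA and 103119 to 163172 in D. Of these markers, 9 were higher in D than in EVP, and Pecam1, which encodes CD31, was at 260.1 ± 204 in EVP and 24244 ± 5169 in D (mean ± SD, n = 5). The cells were sorted on CD31 and VEGFR2, so that the direction of the genes for these proteins was largely set by the gate. Esam, a listed marker outside the gate, was at 377 ± 445 in EVP and 21942 ± 5508 in D. The summed level of 12 fibroblast markers ran the other way, from 165367 to 423639 in EVP, 39698 to 125478 in TA and 440 to 1177 in D. All 12 were higher in EVP than in D, among them Dcn, a small proteoglycan that binds collagen fibrils, at 129003 ± 56970.3 in EVP and 182 ± 87.0 in D. EVP libraries thus held little of the endothelial marker RNA, with 7 of 10 markers above 3 reads in every library, and much of the fibroblast marker RNA. In bulk samples, fewer cells of a type and less RNA per cell cannot be told apart, and the part of the fibroblast and endothelial markers in each collagen difference was not tested.

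Glycine codons recur in step along a helix, and their pattern in the coding sequence differs in part between the classes. In the fibrillar genes many coding exons are 54 bases long and hold whole glycine repeats. One such exon is shown for the 3 chains with the most reads and for Col5a2, with the glycine codons (GGN) that keep the spacing of the helix in capitals. The exons lie at chr11:94939904-94939957 (+, Col1a1, coding exon 8), chr6:4515481-4515534 (+, Col1a2, coding exon 8), chr1:45325360-45325413 (+, Col3a1, coding exon 6) and chr1:45434892-45434945 (-, Col5a2, coding exon 6) of GRCm38.
Col1a1: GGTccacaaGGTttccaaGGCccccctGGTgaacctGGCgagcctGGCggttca
Col1a2: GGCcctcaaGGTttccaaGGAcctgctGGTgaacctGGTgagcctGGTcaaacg
Col3a1: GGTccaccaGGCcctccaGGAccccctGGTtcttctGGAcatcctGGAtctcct
Col5a2: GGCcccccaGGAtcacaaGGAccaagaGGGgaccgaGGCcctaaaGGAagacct
Each is the first 54-base coding exon of its gene that starts on a codon and has glycine codons at all 6 positions. The unbroken register was thus fixed by the choice of exon.

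Chains that were higher in D are shown at another chosen place, where their first long glycine run stops. The sequences are 54 coding bases around the end of that run in Col4a1 (chr8:11244525-11245066, -, across 2 exons), Col4a2 (chr8:11402172-11402225, +) and Col13a1 (chr10:61897172-61903140, -, across 2 exons), with the glycine codons up to the end of the run in capitals. The spans of Col4a1 and Col13a1 include an intron that is not printed.
Col4a1: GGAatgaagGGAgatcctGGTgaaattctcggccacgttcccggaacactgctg
Col4a2: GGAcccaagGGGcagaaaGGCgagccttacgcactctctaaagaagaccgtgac
Col13a1: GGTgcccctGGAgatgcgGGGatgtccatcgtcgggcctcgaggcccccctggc
In each chain 3 repeats are followed by codons without a glycine in register, since the windows were placed at that break. The fibrillar genes, with 2 to 3 long runs each, have ends of runs as well.

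Over all 44 genes the number of 54-base coding exons had a median of 29 in the fibrillar class (range 21 to 33), 2 in the basement membrane class (1 to 3), 14 in the FACIT class (4 to 28) and 3 in the other kinds (0 to 6). The classes overlapped in this number, and the FACIT Col22a1, with 28, lay within the fibrillar range. The longest unbroken run of glycine repeats had a median of 338 codon triplets in the fibrillar class (216 to 344) and 41 in the basement membrane class (30 to 66). The FACITs (32 to 113) and the other kinds (23 to 87) overlapped the basement membrane class. Runs of at least 5 triplets numbered 2 per gene at the median in the fibrillar class and 23.5 in the basement membrane class.

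**Figure D1:**
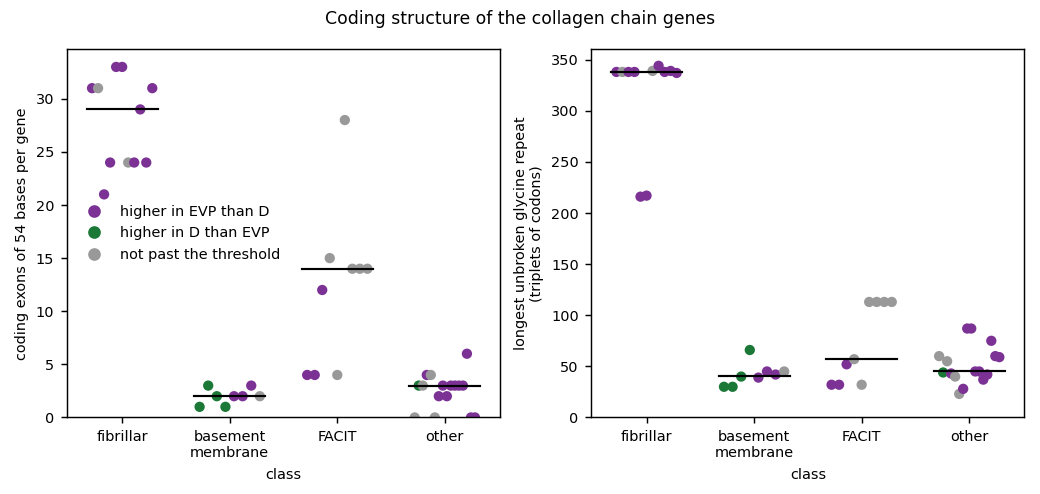
Number of coding exons of 54 bases (left) and length of the longest unbroken glycine repeat in codon triplets (right) for each collagen chain gene by class, colored by its call between EVP and D; black lines are class medians. All 11 fibrillar genes had 21 or more such exons. The 5 genes higher in D had between 1 and 3, as did several genes higher in EVP, among them Col4a3 (2), Col4a5 (3) and Col6a1 (3).

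The chains split between the ends of the hierarchy. Of the 44, 26 were higher in EVP than in D, 5 were higher in D, and 13 did not pass (limma on log2(normalized count + 1), Benjamini-Hochberg adjusted p under 0.05 over all 25549 genes). Of all genes tested, 11.6% were called higher in EVP and 7.46% higher in D. The libraries of EVP and D did not overlap for 29 of the 44, against 17.7% of all genes. The median log2 fold change of the 44 was 3.49, beside 0.46 for all genes tested. The 5 chains higher in D were Col4a1, Col4a2, Col15a1, Col18a1 and Col13a1, of which 4 belong to basement membranes and 1 spans the cell membrane. Of the 31 calls, 25 were made under every one of 25 other settings, and the 6 others (Col4a3, Col6a4, Col7a1, Col8a2, Col11a1 and Col23a1) were each lost under at least 1.

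The calls were counted by class. In the fibrillar class 9 of 11 chains were higher in EVP and none in D. In the basement membrane class 3 of 8 were higher in EVP and 4 in D. In the FACIT class 3 of 9 were higher in EVP and 6 did not pass. Of the 16 other chains 11 were higher in EVP, 1 in D and 4 did not pass, and all 6 type VI chains were among the 11. Of the 18 chains with a mean of 1000 normalized counts or more Col17a1 alone did not pass, while 12 of the 19 with a mean under 100 did not.

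**Figure D2:**
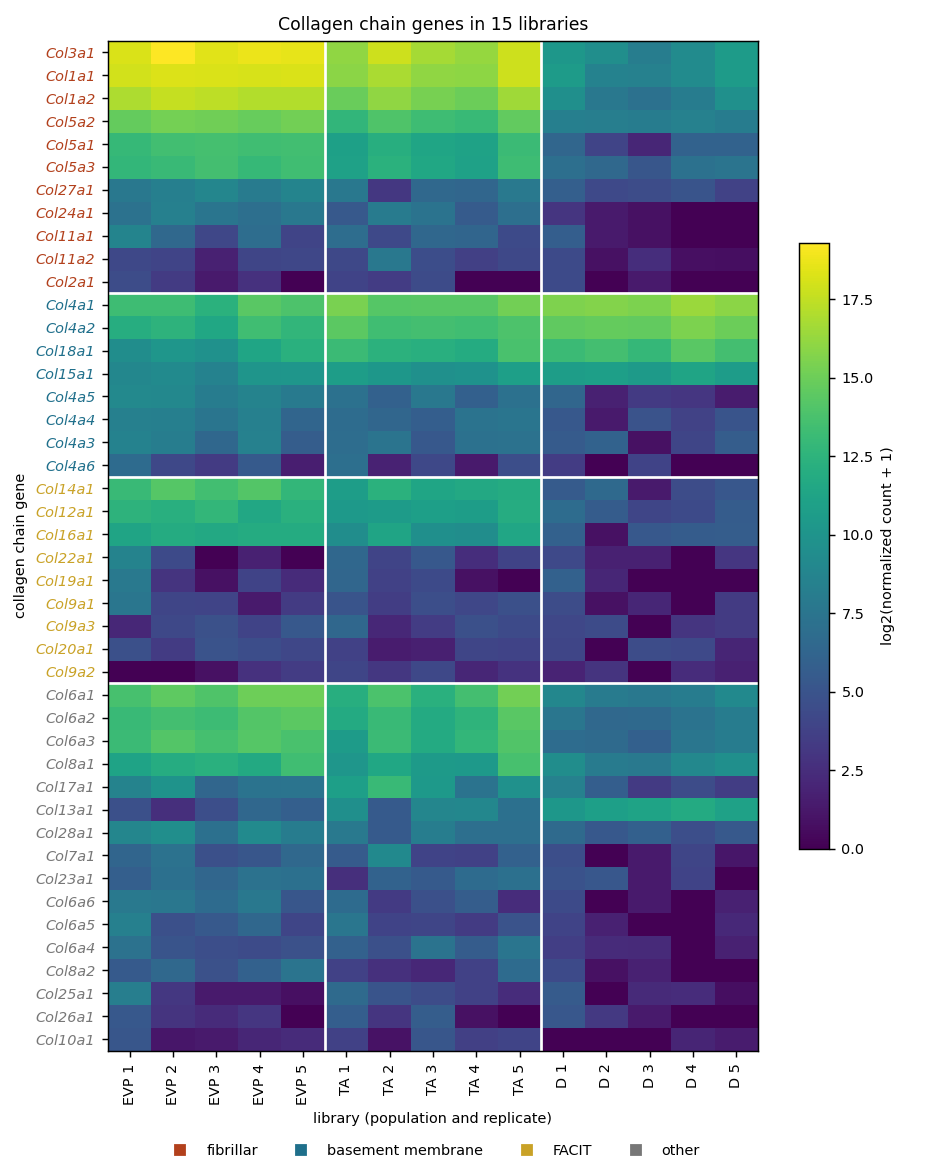
Level of the 44 collagen chain genes as log2(normalized count + 1) in the 15 libraries, ordered by class (color of the gene names) and mean level within a class; white lines separate populations and classes. The upper fibrillar rows are bright in EVP and TA and dark in D, the Col4a1, Col4a2, Col18a1 and Col13a1 rows are brightest in D, and many low rows are brightest in EVP 1.

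**Figure D3:**
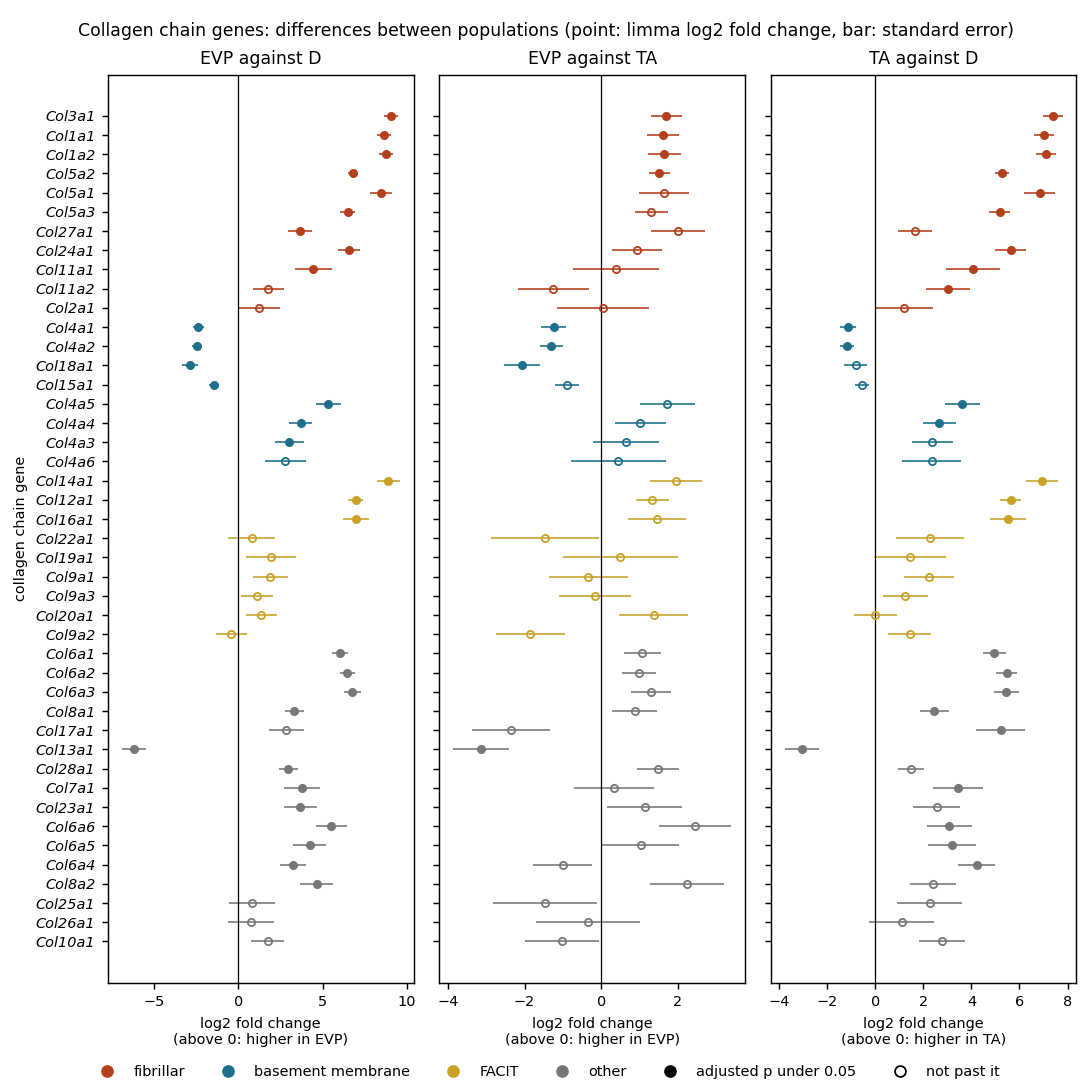
Log2 fold changes from limma with their standard errors for the 44 collagen chain genes in the 3 comparisons; filled points have an adjusted p under 0.05. In the comparison of EVP with D, 26 filled points lie above 0 and 5 below it, and in the comparison of EVP with TA 4 lie on each side.

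Collagen transcripts made up a large part of the EVP libraries. The 44 genes took 5.93% ± 1.15 of reads on genes in EVP, 2.79% ± 1.48 in TA and 0.689% ± 0.180 in D (mean ± SD, n = 5). The shares ran from 4.17% to 7.30% in EVP, 1.60% to 5.08% in TA and 0.540% to 0.977% in D, so that EVP and TA overlapped while D lay below both. The 95% Wilson interval of a library's share was at most 0.0169 percentage points to either side, and a sum over genes chosen with results known was given no test. Fibrillar chains took 89.99% ± 2.54 of the collagen reads in EVP, 75.8% ± 7.32 in TA and 2.56% ± 1.52 in D. Basement membrane chains took 2.18% ± 1.02, 14.3% ± 8.66 and 94.0% ± 1.86. Among the TA libraries the basement membrane share was highest in TA 1, at 28.9%, which also had the highest endothelial marker sum, and its part in that share was not tested.

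**Figure D4:**
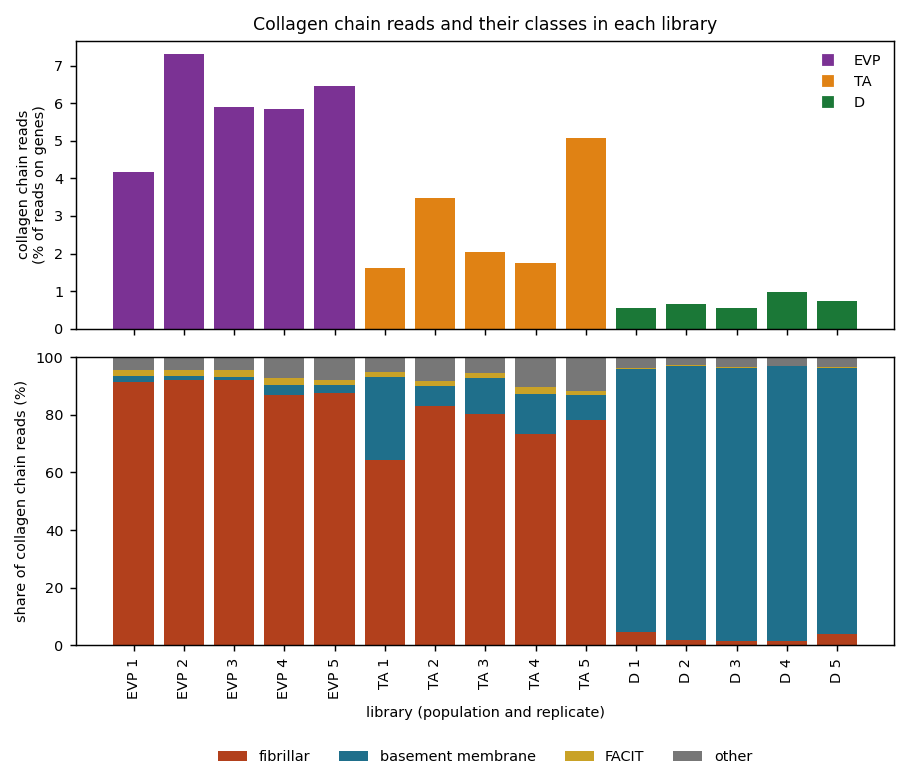
Collagen chain reads as a percentage of reads on genes (top) and the shares of the 4 classes among those reads (bottom) in each library. Fibrillar chains fill 86.8% to 92.2% of the EVP bars and 1.32% to 4.56% of the D bars, where basement membrane chains take 91.5% to 95.7%.

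Among the fibrillar chains, Col3a1 (chromosome 1, 45311538 to 45349706, + strand), the single chain of type III collagen that is abundant in vessels and skin, had the highest mean of all 44 genes. It was at 299520.2, 647193, 354491, 433169 and 395919 normalized counts in EVP replicates 1 to 5, 69006, 230824, 109131, 79499 and 234555 in TA, and 1161, 758, 286, 643 and 1561 in D. The lowest EVP library lay above the highest TA library, and the lowest TA library lay above every D library. Col3a1 was 483-fold higher in EVP than in D by means, with a log2 fold change of 9.08 ± 0.41 (standard error) and a limma adjusted p of 1.44e-10. Against TA its log2 fold change was 1.70 (limma adjusted p = 0.0289), a call that was kept in 9 of 15 fits with 1 library left out.

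Col1a1 (chromosome 11, 94936224 to 94953042, + strand) encodes the α1 chain of type I collagen, the main protein of skin and bone matrix. It was at 255698, 312699.9, 304496, 287338 and 303517 normalized counts in EVP, 62272, 116811, 72037, 67287 and 227624 in TA and 1564, 382, 351, 621 and 1568 in D. The 5 EVP libraries lay close together, TA 5 came nearest to them, and no 2 populations overlapped. The log2 fold change of EVP over D was 8.65 ± 0.41, a 326-fold difference of means (limma adjusted p = 2.24e-10). Col1a2, which encodes the α2 chain of the same protein, differed by 8.75 on that scale (limma adjusted p = 3.04e-10).

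Type V chains start fibrils and set their width. Col5a2 was at 34247 ± 5801 normalized counts in EVP, 13484 ± 7899 in TA and 308 ± 31.8 in D, and its log2 fold change of EVP over D, 6.78 ± 0.27, had the smallest adjusted p of the 44 genes (limma, 5.31e-11). Col5a1 and Col5a3 were 231-fold and 80.6-fold higher in EVP than in D. Of the low fibrillar chains, Col24a1 (203 ± 82.5 in EVP and 1.86 ± 2.88 in D), Col27a1 (334 ± 107 and 28.2 ± 17.7) and Col11a1 (132 ± 168 and 10.9 ± 23.1) were also higher in EVP. Without replicate 1 of each population the mean of Col11a1 was 60.2 in EVP and 0.604 in D, and that of Col24a1 in D was 0.604. For Col11a1 the populations overlapped, since D 1 (52.2) exceeded EVP 3 (16.4) and EVP 5 (14.5). Col2a1, the cartilage chain, had population means between 4.16 and 8.71 normalized counts (0.391 to 7.44 without replicate 1) and did not pass, and the summed chondrocyte markers were 64.1 to 772 normalized counts in all libraries.

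Col11a2, which encodes another chain of cartilage fibrils, stood outside the order of the populations. It was at 17.6, 14.4, 2.45, 15.2 and 16.6 normalized counts in EVP, 17.2, 211, 22.3, 11.8 and 17.4 in TA and 19.2, 0.816, 4.69, 0.751 and 0.604 in D. TA 2 alone was far above all other libraries, and of the rest of TA 3 libraries lay in the range of EVP and TA 3 above it. Its call between TA and D (log2 fold change 3.03, limma adjusted p = 0.0387) was kept in 5 of 15 fits with 1 library left out, and without TA 2 the log2 fold change was 2.31 with an adjusted p of 0.108.

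The type IV family split by its chains. Type IV collagen is built from 6 chains: α1 and α2 form the network found in nearly all basement membranes, and α3 to α6 form the networks of selected epithelia such as the kidney filter. The α1 and α2 genes were the ones higher in D, the α3, α4 and α5 genes were higher in EVP, and α6 did not pass. In level the first pair lay far above the others in every population.

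Col4a1 was at 10108, 10019, 5144, 21118 and 15776 normalized counts in EVP, 44107, 19261, 20328, 20031 and 37791 in TA and 48502, 53033, 45873, 85389 and 63161 in D. Every D library exceeded every TA and EVP library, while TA 2, TA 3 and TA 4 lay below the highest EVP library. The log2 fold change was -2.37 ± 0.33 between EVP and D (limma adjusted p = 3.2e-05), -1.25 between EVP and TA (0.0424) and -1.12 between TA and D (0.03). With 1 library left out, the call against D was kept in 15 of 15 fits for EVP and in 9 of 15 for TA, and the call between EVP and TA in 6 of 15.

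Col4a2 was at 4168, 5842, 2829.7, 10595 and 6847 normalized counts in EVP, 21712, 10421, 11788, 10884 and 15619.7 in TA and 24973, 27437, 26351, 46249 and 32249.5 in D. As for Col4a1, D lay above all other libraries, D 4 was highest and EVP 3 lowest. Its log2 fold changes were -2.48 between EVP and D (limma adjusted p = 6.68e-06), -1.30 between EVP and TA (0.0201) and -1.18 between TA and D (0.0123).

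Col4a3 was at 369, 294, 85.9, 350.1 and 50.5 normalized counts in EVP, 119, 173, 37.9, 145 and 154 in TA and 46.7, 65.3, 0.782, 15.8 and 49.6 in D. EVP 5 fell below D 2, so that the populations overlapped, and the call (log2 fold change 3.03, limma adjusted p = 0.0185) was lost without EVP 4, where the adjusted p was 0.052. Reads from 5.65% of its exon bases can also come from a gene on the opposite strand.

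Col4a4 was at 348, 321, 176, 332 and 79.5 normalized counts in EVP, 114, 80.0, 54.7, 163 and 184 in TA and 38.4, 1.63, 30.5, 12.8 and 32.0 in D. All EVP and all TA libraries were above all D libraries. Its log2 fold change of EVP over D was 3.69 (limma adjusted p = 0.000525).

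Col4a5 was at 534, 516, 281, 404 and 232 normalized counts in EVP, 150.0, 64.2, 209.8, 59.5 and 149 in TA and 82.4, 2.45, 8.60, 7.51 and 1.81 in D. EVP lay above TA and D, while D 1 alone of the D libraries reached the range of TA. The comparison of EVP with TA did not pass (log2 fold change 1.72, limma adjusted p = 0.242). Col4a5 had the largest difference of the 3 chains between EVP and D, with a log2 fold change of 5.35 (limma adjusted p = 2.51e-05).

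Col4a6 was at 105, 17.0, 8.999, 42.4 and 2.07 normalized counts in EVP, 129, 2.64, 16.7, 1.57 and 24.3 in TA and 9.61, 0, 14.1, 0 and 0 in D. The highest values of EVP and TA were in EVP 1 and TA 1, which had 10.6% and 8.69% of their reads on Gm10800, and no comparison passed (EVP against D, log2 fold change 2.79, limma adjusted p = 0.146).

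**Figure D5:**
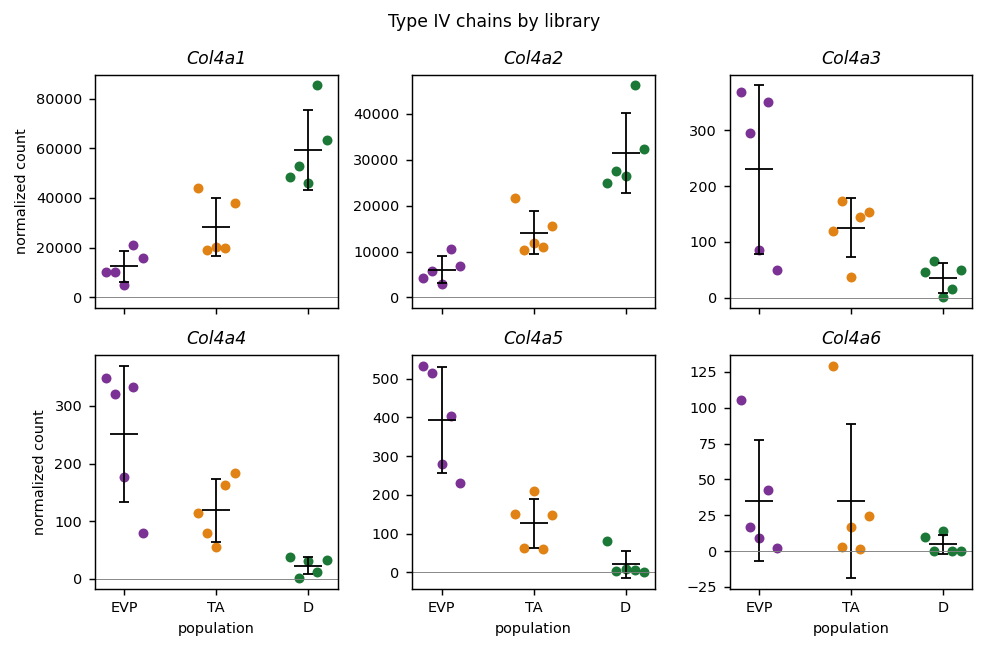
Normalized counts of the 6 type IV chain genes in each library (points), with the mean and SD of each population (black; n = 5); the vertical scale differs between panels. Col4a1 and Col4a2 rise from EVP through TA to D, while Col4a3, Col4a4 and Col4a5 are lowest in D.

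These chains lie in head-to-head pairs on the genome. Col4a1 (chromosome 8, 11198423 to 11312826, - strand) and Col4a2 (11312805 to 11449287, + strand) start on opposite strands and share 22 bases at their starts, and both were higher in D. Col4a4 and Col4a3 start 71 bases apart on chromosome 1, and both were higher in EVP. Col4a6 and Col4a5 start 1308 bases apart on chromosome X, where Col4a5 passed and Col4a6 did not. Neighbors could also go opposite ways: Col6a1 and Col18a1 lie 326009 bases apart on the same strand of chromosome 10, and the first was higher in EVP and the second in D.

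Types XV and XVIII carry sugar chains and a terminal domain that can be released, endostatin in the case of Col18a1. Col18a1 was at 688, 1131, 856, 2663 and 4969 normalized counts in EVP, 9344, 5339, 4536, 3760.1 and 13639 in TA and 9057, 11848, 7355, 20609 and 11655 in D. Every D library exceeded every EVP library, and TA overlapped both. Its log2 fold change was -2.88 ± 0.48 between EVP and D (limma adjusted p = 0.000233) and -2.07 between EVP and TA (0.0223).

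Col15a1 was at 481, 590.5, 379, 1065 and 1133 normalized counts in EVP, 1717, 1212, 821, 915 and 1869 in TA and 1756, 1893, 1450.0, 2429.5 and 1666 in D. The difference was the smallest of the 5 chains higher in D, with a log2 fold change of -1.44 ± 0.31 (limma adjusted p = 0.00218), and no comparison with TA passed.

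Col13a1 (chromosome 10, 61838236 to 61979108, - strand), a collagen that spans the cell membrane and takes part in cell adhesion, had the largest difference toward D. It was at 24.6, 5.23, 24.5, 84.7 and 55.3 normalized counts in EVP, 767, 43.1, 459, 478 and 139 in TA and 1174, 1942, 2311, 3541 and 2129 in D. D lay above all other libraries and the TA libraries were spread from the range of EVP, in TA 2, to 767 in TA 1. Col13a1 was 57.1-fold higher in D than in EVP by means, with a log2 fold change of -6.18 ± 0.72 (limma adjusted p = 5.76e-06), and also differed between EVP and TA (-3.14, 0.0222) and between TA and D (-3.04, 0.00881).

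The starts of the genes with the most reads in EVP and with the largest difference toward D are shown because both have a TATA box letter match in the 250 bases before the RefSeq start (GRCm38.p6), with the match TATAAA in capitals. The windows are chr1:45311288-45311537 (+) for Col3a1 and chr10:61979109-61979358 (-) for Col13a1.
Col3a1: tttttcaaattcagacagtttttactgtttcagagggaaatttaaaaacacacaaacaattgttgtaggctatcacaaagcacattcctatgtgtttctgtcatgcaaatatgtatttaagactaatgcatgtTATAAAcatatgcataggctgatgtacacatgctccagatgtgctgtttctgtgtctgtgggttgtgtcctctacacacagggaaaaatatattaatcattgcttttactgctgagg
Col13a1: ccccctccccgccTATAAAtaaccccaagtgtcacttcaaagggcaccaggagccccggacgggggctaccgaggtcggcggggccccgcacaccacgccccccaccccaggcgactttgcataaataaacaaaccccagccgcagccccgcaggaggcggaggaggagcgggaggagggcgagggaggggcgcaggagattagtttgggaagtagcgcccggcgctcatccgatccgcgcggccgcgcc
Over all 32851 promoter windows of the RefSeq table, TATAAA occurred on either strand in 13.6%, CCAAT in 37.4% and GGGCGG in 35.7%. The table held 38 windows of 300 bases for 35 of the 44 chains, and these run past the start, unlike the 250 bases shown. Of the 22 windows of chains higher in EVP, 1 held TATAAA, 7 held CCAAT and 16 held GGGCGG. Of the 6 windows of chains higher in D the counts were 1, 3 and 3, and of the 10 windows of chains that did not pass 3, 3 and 4. The match lies near the middle of the bases shown for Col3a1 and near their far end for Col13a1, in both away from the start. A letter match describes the sequence and is not a binding site.

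FACITs sit on the surface of fibrils. Col14a1 was at 8465, 19436, 11074, 18233 and 7148 normalized counts in EVP, 1680.5, 5108, 2561, 3261 and 3728 in TA and 45.3, 93.9, 1.56, 21.8 and 36.9 in D. The 3 populations did not overlap, yet the comparison of EVP with TA did not pass (log2 fold change 1.96, limma adjusted p = 0.138). Its log2 fold change of EVP over D was 8.89 ± 0.68 (limma adjusted p = 4.55e-08).

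Col12a1 was at 5604, 4550.1, 7180.2, 3098 and 4950.1 normalized counts in EVP, 1379, 1578, 1905, 1705 and 3952 in TA and 111, 49.0, 15.6, 19.5 and 48.3 in D. TA 5 reached into the range of EVP and D lay far below, with a log2 fold change (EVP over D) of 6.96 ± 0.43 (limma adjusted p = 3.67e-09). The other FACIT that passed was Col16a1, at 3362 ± 577 in EVP and 40.6 ± 23.7 in D. The other 6, Col9a1, Col9a2, Col9a3, Col19a1, Col20a1 and Col22a1, had means between 3.22 and 83.0 normalized counts in the populations. For Col19a1, Col22a1 and Col9a1 the highest library was EVP 1, with 83.0 as the EVP mean of Col22a1 beside values of 393 in EVP 1 and 0 to 19.6 in the other EVP libraries. Without replicate 1 of each population the EVP means of Col22a1, Col19a1 and Col9a1 were 5.50, 6.27 and 10.2. Over all 19 chains with a mean under 100, the highest library was EVP 1 for 9.

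Type VI collagen forms beaded filaments around cells. Col6a1 was at 12854, 23111, 16539.8, 33472 and 33239.7 normalized counts in EVP, 4343, 14594, 4775, 12013 and 36528 in TA and 493, 265, 217, 279 and 579 in D. TA 5 exceeded every EVP library and TA 1 was lowest among TA, while D lay below both populations. Its log2 fold change of EVP over D was 6.03 ± 0.48 (limma adjusted p = 7.92e-08).

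Col6a2 was at 8489.8, 12024, 9526, 18325 and 22331 normalized counts in EVP, 3535, 8565, 3570.4, 5903 and 20809 in TA and 188, 91.4, 93.8, 166 and 280.4 in D. EVP and TA overlapped and D lay below both, and the log2 fold change of EVP over D was 6.45 (limma adjusted p = 1.24e-08). Col6a3, which joins both in the common trimer, had a log2 fold change of 6.76 (4.2e-08). TA 5 was the library with the highest mural marker sum, 157242 normalized counts beside 6231 to 40180 in the other TA libraries, and the part of mural cells in its type VI level was not tested.

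Col6a4, a low chain of the same family, was higher in EVP than in D while its TA mean lay above both. It was at 154, 31.4, 23.7, 19.98 and 26.3 normalized counts in EVP, 62.0, 24.6, 159.6, 48.6 and 181 in TA and 11.0, 4.08, 3.91, 0 and 2.42 in D. EVP 1 stood above the other EVP libraries, and all TA libraries were above all D libraries. The log2 fold change was 4.23 between TA and D (limma adjusted p = 0.00127) and 3.22 between EVP and D (0.00564). Col6a5 and Col6a6, its neighbors on chromosome 9, were at 102 ± 136 and 154 ± 80.2 in EVP and 3.96 ± 5.68 and 4.64 ± 8.22 in D, and both passed. Without replicate 1 of each population the mean of Col6a5 was 42.0 in EVP and 1.52 in D, and that of Col6a6 in D was 0.995.

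Col17a1 (chromosome 19, 47646344 to 47692094, - strand) encodes a membrane-spanning chain of the hemidesmosomes that anchor basal keratinocytes. It was at 400.3, 947, 83.4, 163 and 172 normalized counts in EVP, 1924, 8731, 1428, 161 and 853 in TA and 354, 53.9, 8.60, 21.0 and 10.3 in D. TA 2 was far above all other libraries, TA 4 lay within the range of EVP, and D 1 stood above the other D libraries. It was higher in TA than in D (log2 fold change 5.22 ± 1.02, limma adjusted p = 0.0022), and that call was kept in 15 of 15 fits with 1 library left out, while EVP against D did not pass (2.85, 0.0623).

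The sum of 8 keratinocyte markers moved with it: 94275 normalized counts in TA 2 and 3123 to 22420 in the other TA libraries, 1952 to 10797 in EVP, and 3493 in D 1 beside 131 to 750 in the other D libraries. All 8 markers were above 3 reads in every TA library, Krt14, a keratin of basal keratinocytes, was at 39702 in TA 2, and the part of keratinocyte RNA was not tested.

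Col7a1, the chain of the anchoring fibrils below the same cells, was at 77.2, 154, 25.4, 35.2 and 89.9 normalized counts in EVP, 44.8, 586, 13.4, 12.5 and 63.5 in TA and 23.3, 0, 1.56, 15.02 and 1.21 in D. TA 2 was again far above all other libraries, all EVP libraries were above all D libraries, and TA overlapped both. It was higher in EVP than in D (log2 fold change 3.77, limma adjusted p = 0.0154), a call lost with quantile normalization (2.37, 0.208) and with edgeR (3.19, 0.112). It was also higher in TA than in D (3.44, limma adjusted p = 0.038), a call kept in 9 of 15 fits with 1 library left out and lost without TA 2 (2.56, 0.0995).

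Of the remaining chains, Col8a1 and Col8a2 form short-chain networks in the walls of vessels and the cornea. Col8a1 was 10.2-fold and Col8a2 17.8-fold higher in EVP than in D. The D mean of Col8a2, 4.48 normalized counts, rested on D 1 (19.2) and was 0.790 without it. Both chains were highest or second highest in EVP 5 and TA 5. Col23a1 and Col28a1 were 7.15-fold and 8.31-fold higher in EVP. Col10a1, Col25a1 and Col26a1 did not pass in any comparison.

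The order of the chains within a population is given per kb of annotated exon, since long genes gain more reads. This length joins the exons of all annotated transcripts of a gene, so that the order depends in part on the annotation. It is 6.56 kb for Col1a1 and 12.4 kb for Col1a2, beside coding lengths of 4359 and 4116 bases. By the mean log2 ratio, Col1a1 in EVP was 1.94 times Col1a2 in reads and 3.67 times per kb. The length is 4.38 kb for Col6a1 and 8.33 kb for Col6a2. In EVP Col1a1 (44606 ± 3453 normalized counts per kb) and Col3a1 (43404 ± 13572) were highest and did not differ beyond their spread, and Col1a2 (12301 ± 2357) and Col6a1 (5444 ± 2153) followed. In TA the order began with Col1a1 (16639.7 ± 10617), Col3a1 (14731 ± 8329), Col1a2 (4305 ± 2261) and Col4a1 (3792 ± 1576), with spreads that overlapped between neighbors. In D it began with Col4a1 (7930.3 ± 2152), Col4a2 (4752 ± 1316), Col18a1 (1724 ± 728) and Col13a1 (482 ± 186), and Col1a1 came in place 6 with 137 ± 94.4. Among the first 4 of D, the spreads of Col4a1 and Col4a2 overlapped and those of the next neighbors did not. All these spreads are SDs between libraries and leave out that the chains were measured in the same libraries. The log2 ratio of Col4a1 to Col4a2 within a D library was 0.80 to 0.97 in reads, which the exon lengths shift by -0.17. Col4a1 thus lay above Col4a2 per kb in every D library.

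TA lay between EVP and D for most chains that differed. Of the 26 chains higher in EVP than in D, 24 had a TA mean of normalized counts between both, and Col6a4 and Col7a1 had one above both. All 5 chains higher in D had a TA mean between both. With EVP set to 0 and D to 1, the TA mean of normalized counts sat at a median of 0.57 for the first group and 0.34 for the second. On the log2(normalized count + 1) scale, where Col7a1 also lay between, the medians were 0.20 and 0.53, so that which group lay nearer to D depended on the scale. In the fit on the log2 scale, 4 of the 44 were higher in EVP than in TA, against 1.56% of all genes, and 4 were higher in TA, against 1.94%. The first 4 were Col1a1, Col1a2, Col3a1 and Col5a2, all fibrillar, and the second 4 were Col4a1, Col4a2, Col18a1 and Col13a1. For 6 of the 44 the EVP and TA libraries did not overlap, against 4.29% of all genes. This comparison was the least certain: the count of calls, 8, fell to 1 without EVP 2, EVP 3 or TA 1, to 3 without TA 3, to 4 without EVP 1 or TA 4 and to 5 without EVP 4, and was 1 without replicate 1 of every population. The call of Col5a2 (log2 fold change 1.51 ± 0.27, limma adjusted p = 0.00607) was the one made in every setting tried. With quantile normalization 1 chain was higher in EVP and 4 in TA.

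Between TA and D, 23 chains were higher in TA, against 8.21% of all genes, and 3 were higher in D, against 4.31%. The 3 were Col4a1, Col4a2 and Col13a1. For 19 of the 44 the TA and D libraries did not overlap, against 9.25% of all genes. The fibrillar class gave 9 of the 23, the type VI chains 6 and the FACIT class 3. The 3 comparisons share libraries, so that their counts are not independent. Of the 26 calls, 18 were made under every one of the 25 other settings, and the 8 others (Col4a1, Col4a4, Col6a5, Col6a6, Col7a1, Col11a1, Col11a2 and Col13a1) were each lost under at least 1. Without replicate 1 of every population, 32 chains were called between EVP and D and 30 between TA and D, beside 31 and 26 with all libraries.

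The proportions of chains that share a trimer or a site were compared within libraries, where the size factor plays no part. Over 8 ratios of chains in 3 comparisons, 0 of 24 exact two-sided permutation tests passed after Benjamini-Hochberg adjustment, 7 had an unadjusted p under 0.05, and the lowest adjusted p was 0.0635. The smallest exact p that 5 against 5 libraries can give is 0.00794. With 24 tests adjusted together a lone test at that value cannot pass, so the lack of passing tests says little. The log2 ratio of Col1a1 to Col1a2 was 0.95 ± 0.19 in EVP, 0.99 ± 0.22 in TA and 1.06 ± 0.17 in D (SD, n = 5), over a range in which Col1a1 itself differed 326-fold. The log2 ratio of Col4a1 to Col4a2 was 1.02 ± 0.21, 0.97 ± 0.19 and 0.91 ± 0.07 in the same order. Neither p value shows that the ratios were equal.

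Other ratios differed more. The log2 ratio of Col15a1 to Col18a1 was -1.22 ± 0.60 in EVP, -2.39 ± 0.33 in TA and -2.65 ± 0.31 in D, and EVP and D did not overlap (exact permutation p = 0.00794, adjusted 0.0635). The log2 ratio of Col5a1 to Col5a2 was -1.68 ± 0.17 in EVP and -3.37 ± 1.78 in D, with the same exact permutation p values and a D library as low as -6.10. The log2 ratio of Col12a1 to Col14a1 was -1.28 ± 0.97 in EVP and 0.66 ± 1.39 in D (exact permutation p = 0.0317, adjusted 0.152). In D 3, Col5a1 was at 3.13 and Col14a1 at 1.56 normalized counts, where 3 reads were worth 2.34. The D ratios of these pairs thus rest in part on few reads.

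The genes that build, process and bind collagen were counted from lists. Of all genes tested, 11.6% were higher in EVP than in D and 7.46% were higher in D, the shares beside which these counts stand. Of 19 genes for chain modification and folding, 12 were higher in EVP than in D and 3 in D (median log2 fold change 1.00, against 0.46 for all genes). Serpinh1, the collagen chaperone of the endoplasmic reticulum, was at 49028 ± 7063 normalized counts in EVP and 28602 ± 8161 in D, and P4hb, a subunit of prolyl 4-hydroxylase, at 36948 ± 6281 and 20231 ± 3537. These are small differences beside those of the fibrillar chains. The 3 higher in D, named after their values were seen, were Plod1 and P3h2, which hydroxylate lysine and proline, and Colgalt2, which adds galactose, with log2 fold changes of -0.93, -2.89 and -3.01.

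Of 8 genes that trim procollagen, 5 were higher in EVP and 1 in D (median 3.71), against 11.6% and 7.46% of all genes. Pcolce, an enhancer of the C-proteinase, was at 21424 ± 5105 in EVP and 1288 ± 434 in D, and Adamts2, the N-proteinase, at 11225 ± 4894 and 124 ± 103. The 1 higher in D was Tll1, a proteinase of the Bmp1 family, with a log2 fold change of -2.44, named after its value was seen. All 5 lysyl oxidase genes, which crosslink collagen, were higher in EVP (median 6.08), with Lox at 37579.9 ± 10902 in EVP and 48.7 ± 59.9 in D and Loxl1 at 19772 ± 5798 and 40.6 ± 25.8.

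Collagen receptors split evenly. Of 11, 4 were higher in EVP and 4 in D (median -0.29), against 11.6% and 7.46% of all genes. Itgb1, the β1 integrin subunit, was higher in D (-1.18, limma adjusted p = 0.000819), as was Itga1 (-1.88, 0.00618), whose integrin binds type IV collagen. Named after their values were seen, the others higher in D were Itga2 and Adgrg1, and those higher in EVP were Ddr1, Ddr2, Itga11 and Mrc2. Of 7 collagen-degrading enzymes 6 were tested and 3 were higher in EVP (median 4.57). These were Mmp2 and, named after their values were seen, Ctsk and Mmp9. Mmp14, a membrane-bound collagenase, did not pass (0.42, limma adjusted p = 0.227).

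Markers of other cell types were counted the same way, including leukocytes and melanoma cells, which the Lin- and GFP+ gates should remove. Of 10 mural markers 4 were higher in EVP than in D and 2 in D, with sums of 7449 to 34637 normalized counts in EVP, 6231 to 157242 in TA and 5227 to 10913 in D. Of 10 leukocyte markers 1 was higher in EVP, with sums of 2704 to 13701, 8163 to 51340 and 3962 to 10819. Of 8 melanoma markers 2 were higher in EVP, and their sums of 35221 to 78751, 86331 to 199640 and 23158 to 53943 were not at 0 in any library. Of 8 keratinocyte markers 5 were higher in EVP, of 8 Schwann cell markers 3 of the 6 tested, and of 8 chondrocyte markers 1 of the 5 tested. Of all genes tested, 11.6% were higher in EVP than in D and 7.46% in D. Between TA and D, every marker called in these lists was higher in TA, against 8.21% of all genes. These were 8 melanoma, 8 keratinocyte, 6 mural, 5 leukocyte, 5 Schwann cell and 1 chondrocyte marker. Sox10 is in both the melanoma and the Schwann cell list and is counted in each. Between EVP and TA, 4 melanoma, 4 leukocyte and 2 mural markers were higher in TA, against 1.94% of all genes, and none in EVP. The part of these cells in the collagen differences was not tested.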

How the data were processed

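Smart-Seq2 libraries of 3 sorted populations, 5 each, had been sequenced, aligned to mm10/GRCm38 with STAR 2.5.3a after bcl2fastq 2.17 and normalized with DESeq2 1.10.1 according to the submitters' processing notes; reads per gene were counted with HTSeq against Ensembl 91. The deposited signal is the normalized count, the read count of a gene divided by the size factor of its library. Whole reads were recovered from it for 100% of values (tolerance 0.01). The deposited tables of pairwise comparisons hold the authors' fold changes and p-values and were not used.

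Genes were named by the table, and 44 symbols matched the pattern. Because the values are not counts, all 25549 genes with a mean of at least 5 were fitted with limma 3.58.1 (R 4.3.3; trend, two-sided, 1 coefficient per population) on log2(normalized count + 1), a scale that understates the change of low genes, and p-values were adjusted by Benjamini-Hochberg with a threshold of 0.05. edgeR 4.0.16 and DESeq2 1.42.0 on the recovered reads, other pseudocounts, filters and scalings, a replicate block and omitted libraries were alternatives. Scripts were tested on simulated data. Ratios of chains were compared by exact permutation. Exon lengths and coding exons came from GENCODE M21 (GRCm38), and promoter windows from RefSeq.

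The members and lists were chosen with earlier results of these data known. Every chain could be named, and all 15 values were given for the 2 highest chains of each class, those higher in D than in EVP, those with a TA mean of normalized counts outside both others and a call against TA, Col3a1 and the type IV chains. Of each other list the 2 genes with the highest mean could be named. The strand setting of the counting is not given in the sources used here.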

Additional observations from a re-analysis of the deposited data

Results flagged for a closer look

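In groups of 5 libraries the highest or lowest value was set apart from the others when its gap to the nearest exceeded 0.71 of the range of the group. This held for 10 of 57 groups tested for the chains whose library values are given. The limit sets apart about 1 in 20 groups of normally distributed values, and these counts were not transformed. Some chains were included because their TA mean lay outside the EVP and D means, which a single extreme TA library can produce. The count of 10 is therefore not set against chance. TA 2 stood apart with 8731 normalized counts of Col17a1 (nearest TA library 1924), 586 of Col7a1 (nearest 63.5) and 211 of Col11a2 (nearest 22.3). D 1 stood apart with 354 of Col17a1 (nearest D library 53.9), 82.4 of Col4a5 (nearest 8.60) and 19.2 of Col11a2 (nearest 4.69). EVP 1 stood apart with 154 of Col6a4 (nearest EVP library 31.4) and TA 1 with 129 of Col4a6 (nearest TA library 24.3). TA 5 stood apart with 3952 of Col12a1 (nearest 1905), and EVP 3 was low in Col11a2, at 2.45 (nearest 14.4). Of the 10, 5 were in replicate 1 of a population, the libraries with 8.50% to 10.6% of reads on Gm10800, and the part of that background was not tested.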

How the results depend on the processing

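The counts of chains called between EVP and D (31) and between TA and D (26) and the collagen shares of reads stayed within 1.5 times, or 1 SD, of these values in every setting tried. With 1 library left out they ran from 30 to 32, from 20 to 28, and from 5.59% to 6.37% in EVP, 2.22% to 3.09% in TA and 0.616% to 0.726% in D. The count between EVP and TA (8) did not: it was 5 with no minimum mean, 5 with quantile normalization (1 higher in EVP and 4 in TA), 2 with edgeR on whole reads, 1 without replicate 1 of every population, and 1 to 12 with 1 library left out, while DESeq2 on whole reads gave 11. The cause was not tested. Col4a6 between EVP and TA, never called, turned in sign with edgeR (log2 fold change -0.027) and ran from -0.17 to 1.25 with 1 library left out, below 0 without EVP 1 (-0.17), TA 2 (-0.04) or TA 4 (-0.17). Col7a1 between EVP and TA, never called (0.33), turned with edgeR (-0.94) and DESeq2 (-0.92) and ran from -0.15 to 1.21 with 1 library left out, below 0 without TA 3 (-0.13) or TA 4 (-0.15). Of 1422 values of single named chains under other settings, 90 lost a call and 15 gained one.

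Quantile normalization moved the median log2 fold change of all genes between EVP and D from 0.46 to -0.05, and 26 chains were then called, 21 higher in EVP and 5 in D. Relative to these medians the 5 chains kept their direction.

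The labels do not say what a replicate number marks, and the numbers were not taken as pairs because 4 of 15 pairs with the same number had a correlation of deviations of at most 0.1 (range of all 15 -0.14 to 0.69). The other 11 were over 0.1 and 12 of 15 were best with their own number, a hint from the data of structure shared by replicate number. With a replicate block 32 chains were called in the comparison of EVP with D, 8 in that of EVP with TA and 28 in that of TA with D. Depth limits the low chains: 3 reads were worth 1.81 to 10.5 normalized counts.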
